A study of Mus musculus with 24 samples.

Results

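Chaperone genes are described here across the cerebella of 24 mice aged 6 weeks. The set holds 34 genes of heat shock proteins, their co-chaperones and the heat shock factors, chosen as a list of symbols. The rule uses no measured value, although earlier results of these data were known when the list was proposed. All 34 were found among the 54232 genes that each library lists, and all 34 were among the 22502 genes kept for testing. The study asked whether S776A, a mutation that replaces a phosphorylated serine of ATXN1 with alanine, changes the disease of a knockin mouse model of spinocerebellar ataxia type 1 (SCA1). WT mice (n = 8) carried 2 unexpanded Atxn1 alleles. SCA1 mice (n = 4) carried an expanded glutamine tract on 1 Atxn1 allele and an unexpanded second allele. SCA1 S776A mice (n = 4) had the S776A mutation on the expanded allele, and S776A double mice (n = 4) had it on both the expanded and the unexpanded allele. WT S776A homozygous mice (n = 4) had the mutation on both alleles and no expansion. The S776A alleles were made with CRISPR/Cas9, and the lines were kept on the C57BL/6J background. The expansion and the mutation sit in the endogenous gene, so they are present in every cell that expresses Atxn1 and not only in Purkinje cells. The founder and the sex of the sequenced mice are not given in the sources used here.

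Molecular chaperones bind unfolded or misfolded proteins and help them to fold, to come apart from aggregates or to be degraded. HSP70 proteins hold short stretches of a client, J-domain proteins of the DNAJ families bring clients to HSP70 and start its ATP cycle, and HSP110 proteins exchange its nucleotide. HSP90 proteins act later on nearly folded clients, and small heat shock proteins keep unfolded ones soluble. When unfolded proteins accumulate in the cytosol, heat shock factor 1 (HSF1) is released from chaperones and switches on the inducible members, while the endoplasmic reticulum and the mitochondria have chaperones and stress signals of their own. Chaperones are studied in polyglutamine disease because expanded proteins form inclusions that contain them.

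Each library held 62163600 to 88430180 fragments on genes (median 74852158), and the member with the fewest fragments, Hspa1a, had 237 to 496 per library. Levels are given as CPM, the counts of a gene scaled to a common library total after TMM adjustment. The summed CPM of marker lists was scaled to the library total without TMM adjustment. The sequencing batch is not listed in the labels. It was inferred from mapping shares alone, with 16 mice in batch 1 (4 WT mice and all SCA1, SCA1 S776A and S776A double mice) and 8 in batch 2 (4 WT and all WT S776A homozygous mice). Controls in the main fit were the 4 WT mice of the same batch, so the SCA1, SCA1 S776A and S776A double comparisons share their control mice. Markers of granule cells, Purkinje cells and Bergmann glia, the cell types that mark the labelled tissue, were detected in every library. Atxn1 itself had log2 fold changes against WT of 0.21 in SCA1 mice, 0.27 in SCA1 S776A mice, 0.29 in S776A double mice and 0.02 in WT S776A homozygous mice (SE 0.08 each, adjusted p from 0.398 to 0.947), and counts per gene do not show which allele a fragment came from. In bulk tissue, fewer cells of a type and less RNA per cell cannot be told apart. The summed CPM of the 5 Purkinje cell markers was 5973 to 6505 in SCA1 mice and 7720 to 8883 in the WT mice of batch 1, without overlap. The 5 choroid plexus markers varied between libraries of all groups, from 20.6 to 5399 summed CPM.

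Most chaperone genes were abundant in WT cerebellum. Per kilobase of exon, 32 of the 34 lay above the median of the genes tested and 18 lay in the top 10%. The cytosolic genes Hsp90ab1, Hspa8 and Hsp90aa1 led the order in the WT mice of batch 1, with 388 ± 11.9, 294 ± 21.1 and 236 ± 9.20 CPM per kb (SD, n = 4), and their ranges over mice did not overlap. Hspa8 encodes the constitutive HSP70 of the cytosol, and the HSP90 genes encode its inducible and constitutive partners. Stip1, which links HSP70 to HSP90, followed with 90.7 ± 5.23 CPM per kb (SD, n = 4). Dnaja2, the mitochondrial genes Hspd1 and Hspa9, and the endoplasmic reticulum gene Hspa5 came next at 62.7 ± 1.74, 62.7 ± 2.74, 61.0 ± 0.863 and 60.4 ± 10.9 CPM per kb (SD, n = 4), with overlapping ranges. For 20 of the 34 genes the range overlapped that of the gene above it in the order, so their ranks are not separated. At the lower end stood the heat shock factors Hsf1 (6.70 ± 0.155 CPM per kb) and Hsf2 (4.05 ± 0.288 CPM per kb), and last the inducible HSP70 genes Hspa1b (1.77 ± 0.223 CPM per kb) and Hspa1a (1.32 ± 0.122 CPM per kb; SD, n = 4).

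**Figure D1:**
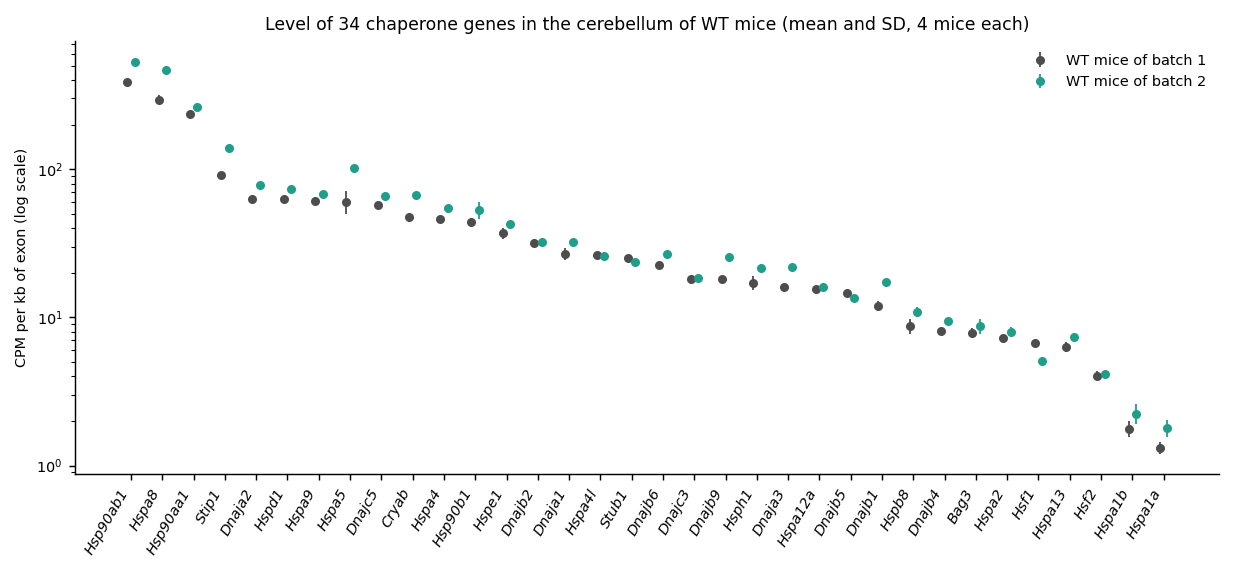
Level of each chaperone gene in WT cerebellum, as CPM per kilobase of exon on a log scale, ordered by the mean in batch 1. Dots are means and bars SDs of 4 WT mice per batch. Hsp90ab1 stands at 388 and Hspa1a at 1.32 CPM per kb in batch 1, and most genes have higher means in batch 2.

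The spread between mice of one genotype and batch was small for these genes next to all genes tested, which were not matched for level. The biological coefficient of variation, which is the variation beyond counting error, had a median of 8.41% over the members against 12.5% over all genes tested, and it was below that median for 31 of the 34. Hspa9, the mitochondrial HSP70, varied least at 5.62%. The 3 members above the median of all genes were Hspa5 at 17.0%, Hspa1b at 15.3% and Hspb8 at 12.8%.

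Hspa1a and Hspa1b encode nearly the same inducible HSP70 protein and lie side by side on chromosome 17. Of the 100-base windows of the longest transcript, 56.5% in Hspa1a and 49.9% in Hspa1b also occur in transcripts of other genes, so fragments from one may be lost or split and the single values are uncertain. The same holds to a lesser degree for Hsp90aa1 (47.6%), Dnajb6 (36.3%), Hspa8 (32.1%), Hspd1 (26.9%) and Dnaja1 (24.0%), which have copies annotated elsewhere. Stub1 shares 42.3% of its exonic bases with overlapping genes, mainly Jmjd8 on the other strand, and the counts were made without strand.

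RefSeq promoter sequences (GRCm38.p6, 250 bases before to 50 after a start) matched 26 of the 34 members, with 37 starts. Heat shock factors bind inverted repeats of the unit NGAAN, so the letters GAANNTTC and TTCNNGAA were searched, which are palindromes and read the same on both strands. One or the other was found for 11 of the 26 members, in 13 of their 37 promoters, and in 15.1% of all 32851 promoters. The endoplasmic reticulum stress element (CCAAT and, after 9 bases, CCACG, on either strand) was found for Hspa5, Hsp90b1 and Dnajc3 and in 0.119% of all promoters. A match of letters is a description and not a measured binding site. Stretches of 30 bases, on the strand of the gene, are shown for the Hspa1 pair and for 5 genes whose levels moved together across mice. A further stretch lies between the starts of Hspd1 and Hspe1 and is printed for Hspd1. Dnajb1, Hspa4 and Stip1, whose levels also moved with those of Hsph1, have a promoter entry without a match, while Stub1, Dnajb6 and Hspe1 have a match and had r of -0.11, 0.12 and 0.18 with Hsph1 across mice. Capitals mark the matched letters.
Hspa1a: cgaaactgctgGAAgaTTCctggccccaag
Hspa1b: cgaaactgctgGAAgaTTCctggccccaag
Hsph1: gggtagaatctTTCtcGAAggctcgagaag
Dnaja1: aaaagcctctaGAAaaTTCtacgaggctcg
Hspd1: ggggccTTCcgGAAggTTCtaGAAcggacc
Hspa5: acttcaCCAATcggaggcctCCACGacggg
Hsp90b1: acaagcCCAATcgcaaggagCCACGcttcg
Dnajc3: ccacaaCCAATcagcgccaaCCACGacccg
The stretches of Hspa1a (chr17:34972242-34972271, minus strand) and Hspa1b (chr17:34959324-34959353, minus strand) have the same letters, and the whole promoter windows of this pair were identical at 296 of 300 bases (98.7%). The Hsph1 stretch lies at chr5:149636351-149636380 (minus strand), that of Dnaja1 at chr4:40722333-40722362 (plus strand) and that of Hspd1 at chr1:55088053-55088082 (minus strand). In the Hspd1 stretch 3 matches overlap in a row, and the same bases are read from the other strand in front of Hspe1, which starts the other way. All stretches lie before the RefSeq start of their gene. Those of Hspa5, Hsph1, Dnaja1 and Hspd1 overlap an exon that GENCODE M21 annotates, and those of Hspa1a, Hspa1b, Hsp90b1 and Dnajc3 overlap none. The endoplasmic reticulum stress element lies at chr2:34772019-34772048 (plus strand) for Hspa5, at chr10:86705633-86705662 (minus strand) for Hsp90b1 and at chr14:118937821-118937850 (plus strand) for Dnajc3.

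SCA1 mice were compared with WT mice to see which transcripts depend on the expanded allele. No chaperone gene passed the test in SCA1 cerebellum. By the quasi-likelihood test of edgeR, adjusted by Benjamini-Hochberg, 0 of 34 passed at the study's thresholds (adjusted p under 0.01 and absolute log2 fold change over 0.5; 0.173% of all genes) and 0 of 34 at an adjusted p under 0.05 (0.387% of all genes). The lowest adjusted p of a member was 0.291. The median log2 fold change of the members was 0.03 (range -0.25 to 0.24), and that of all genes was 0.00. The 95% interval lay within 0.5 on the log2 scale to either side of 0 for 33 of the 34, and Hspa1b was the exception (-0.56 to 0.07). At an unadjusted p under 0.05 there were 4 of 34 (11.8%), against 8.25% of all genes. These were Hspa12a, Hsf2, Hspa2 and Hspa8. The values of 1 member lay above and of 1 below all 4 WT mice, against 3.77% and 4.99% of all genes. DESeq2 with the batch in the design also called 0 members (0.978% of all genes), and the steps of the study's methods (ComBat-seq, then DESeq2) called 2 of 34 at an adjusted p under 0.05, Hsf2 and Hspa12a, where they called 2.48% of all genes.

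Hspa12a, a distant member of the HSP70 family, lies on chromosome 19 from 58795750 to 58943654 (minus strand). It had 149.6, 139, 145 and 141.7 CPM in the WT mice of batch 1 and 124, 133.5, 119 and 107 CPM in SCA1 mice, and all 4 SCA1 mice lay below all 4 WT mice. The log2 fold change was -0.25 (SE 0.08, adjusted p = 0.291), with a 95% interval of -0.43 to -0.08. SCA1 S776A mice had 133, 113, 143 and 127 CPM and S776A double mice 134.7, 123, 124 and 145 CPM, which overlapped the WT mice. Their log2 fold changes against WT were -0.16 (SE 0.08, adjusted p = 0.9998) and -0.13 (SE 0.08, adjusted p = 0.782). The Purkinje cell markers were lower in the same SCA1 mice (all 5 at an unadjusted p under 0.05, median log2 fold change -0.29). Their part in the Hspa12a values was not tested. In batch 2 Hspa12a had 138.5, 158, 149 and 148 CPM in WT and 149, 137, 142.3 and 109.8 in WT S776A homozygous mice, with 1 low homozygous mouse and a log2 fold change of -0.14 (SE 0.08, adjusted p = 0.530).

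Hsf2, a heat shock factor that acts with HSF1 and in development, lies on chromosome 10 from 57486385 to 57513135 (plus strand). It had 35.7, 39.1, 42.4 and 38.5 CPM in the WT mice of batch 1, and in SCA1 mice it had 41.5, 44.8, 44.8 and 43.6 CPM. In SCA1 S776A mice it had 44.8, 44.3, 43.4 and 39.9 CPM and in S776A double mice 45.9, 46.5, 42.6 and 44.5 CPM. All 4 S776A double mice lay above all 4 WT mice, while 1 WT mouse reached into the range of the SCA1 and SCA1 S776A mice. Relative to WT, the log2 fold change was 0.17 (SE 0.06, adjusted p = 0.406) in SCA1 mice, 0.15 (SE 0.06, adjusted p = 0.9998) in SCA1 S776A mice and 0.21 (SE 0.06, adjusted p = 0.456) in S776A double mice. None passed with edgeR. With ComBat-seq and DESeq2 the adjusted p was 0.0433 for Hsf2 in SCA1 and 0.0093 in S776A double mice. That fit took the WT mice of both batches as controls, on adjusted counts. DESeq2 with the batch in the design called no member in either genotype, so the call differed between the fits. In batch 2 Hsf2 had 39.0, 40.2, 42.7 and 38.8 CPM in WT and 39.8, 38.9, 42.3 and 46.8 in WT S776A homozygous mice.

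Hspa2, an HSP70 gene best known from germ cells, was named after its values were seen. It had 20.3, 18.2, 20.0 and 18.1 CPM in the WT mice of batch 1 and 23.3, 23.2, 22.0 and 22.0 CPM in SCA1 mice, without overlap, and a log2 fold change of 0.24 (SE 0.09, adjusted p = 0.437). In SCA1 S776A and S776A double mice the log2 fold changes were 0.13 (SE 0.09, adjusted p = 0.9998) and 0.17 (SE 0.09, adjusted p = 0.7499), with overlap. Hspa8 had 1296, 1210.1, 1177 and 1379.6 CPM in the same WT mice and 1312, 1613, 1455 and 1304 CPM in SCA1 mice, where 2 of the 4 SCA1 mice lay within the WT range. Its log2 fold change was 0.17 (SE 0.08, adjusted p = 0.584), and 0.09 without SCA1 replicate 2. In batch 2 Hspa8 had 2120.5, 2065, 2023 and 1834 CPM in WT and 1817, 1761, 2183 and 1985 in WT S776A homozygous mice, with overlap.

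**Figure D2:**
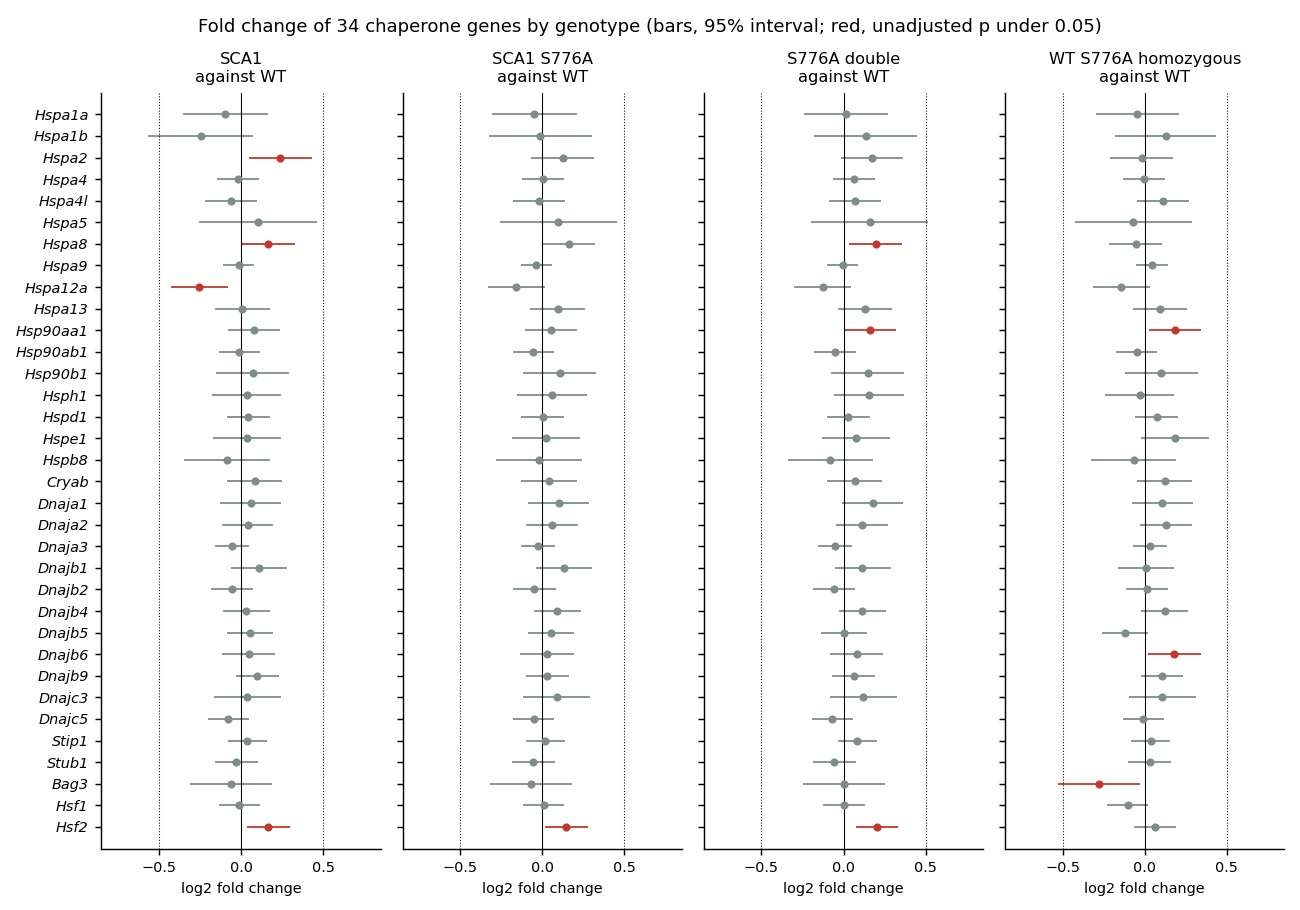
Log2 fold change of the 34 chaperone genes in each genotype relative to WT mice of the same batch. Points are edgeR estimates, bars are 95% intervals, dotted lines stand at 0.5 on either side of 0 and red marks an unadjusted p under 0.05. No gene passes the adjusted test, and nearly all intervals lie between the dotted lines.

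In SCA1 S776A mice no chaperone gene passed the test either. Against WT, 0 of 34 passed at both thresholds (0.0133% and 0.0222% of all genes). DESeq2 with the batch also called 0 (0.0889% of all genes), as did ComBat-seq with DESeq2 (0.293%). The median log2 fold change was 0.02 (range -0.16 to 0.16), and all 34 intervals lay within 0.5 of 0. At an unadjusted p under 0.05 there was 1 member (2.94%), Hsf2, against 3.93% of all genes, and no member was free of overlap (4.39% of all genes). Hspa8 had 1379.7, 1363, 1459.5 and 1457 CPM in these mice and a log2 fold change of 0.16 (SE 0.08, adjusted p = 0.9998). Set directly against SCA1 mice, 0 of 34 passed (0.00444% of all genes at an adjusted p under 0.05), 0 had an unadjusted p under 0.05 (4.35% of all genes) and the median log2 difference was 0.01.

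In S776A double mice again no member passed. The median log2 fold change against WT was 0.07 (range -0.13 to 0.21). The member median of single mice had an SD of 0.0547 within a group. Of the 34 members 26 were above 0 (76.5%), against 49.8% of all genes. In SCA1, SCA1 S776A and WT S776A homozygous mice 20, 22 and 21 of 34 were above 0. Several members moved together across mice, so these are not counts of independent genes. In S776A double mice 0 of 34 passed at the study's thresholds (0.0267% of all genes), and 0 passed at an adjusted p under 0.05 (0.08% of all genes). DESeq2 with the batch called 0 (0.28% of all genes), and ComBat-seq with DESeq2 called 1, Hsf2, among 1.16% of all genes. At an unadjusted p under 0.05 there were 3 members, Hsf2, Hspa8 and Hsp90aa1 (8.82%, against 6.93% of all genes). The same 3 lay above all WT mice of the batch, against 3.56% of all genes. Hspa8 had 1595, 1412, 1410.0 and 1388 CPM in these mice, with a log2 fold change of 0.20 (SE 0.08, adjusted p = 0.644). Hsp90aa1, the inducible cytosolic HSP90, had 915, 892, 928 and 978 CPM in WT and 1059, 1043, 1049.7 and 995 CPM in S776A double mice, with a log2 fold change of 0.16 (SE 0.08, adjusted p = 0.718). In SCA1 mice it had 927, 1016, 999.9 and 981 CPM and in SCA1 S776A mice 951, 916, 1017 and 969 CPM, both overlapping WT.

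The other mice with the expanded allele served as a further reference for S776A double mice. Against SCA1 mice 0 of 34 passed (0.00444% of all genes at an adjusted p under 0.05). Hspa1b alone had an unadjusted p under 0.05 (3.64% of all genes), with a log2 difference of 0.38 (SE 0.15, adjusted p = 1). Without S776A double replicate 1 it was 0.24, and for the summed fragments of Hspa1a and Hspa1b the difference was 0.26 (SE 0.13, adjusted p = 0.99994), both with an unadjusted p over 0.05. Dnajb5, a J-domain partner of HSP70, had 90.8, 88.04, 90.2 and 92.2 CPM in SCA1 mice and 88.04, 87.9, 85.5 and 87.7 CPM in S776A double mice. The nearest mice of both groups had the same printed value, and the groups were free of overlap only in further digits (1.12% of all genes). The log2 difference was -0.05 (SE 0.07, adjusted p = 1). The gene was named after its values were seen. Against SCA1 S776A mice 0 of 34 passed (0% of all genes) and 0 had an unadjusted p under 0.05 (2.96% of all genes).

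With the 12 mice that carry the expanded allele pooled, 0 of 34 passed at the study's thresholds and 0 at an adjusted p under 0.05 (0.0978% and 0.204% of all genes). The lowest adjusted p was that of Hsf2, with a log2 fold change of 0.17 (SE 0.05, adjusted p = 0.244). Hspa8 had 0.17 (SE 0.06, adjusted p = 0.456), Hspa2 0.18 (SE 0.08, adjusted p = 0.563) and Hspa12a -0.18 (SE 0.07, adjusted p = 0.483) on the same scale. These 4 had an unadjusted p under 0.05 (11.8%, against 7.67% of all genes), and no member was free of overlap (1.07% of all genes). ComBat-seq with DESeq2 called Hsf2 (adjusted p = 0.000707) and Hspa8 (adjusted p = 0.0202) here, among 3.66% of all genes. Without the batch, edgeR called 6 members, among 6.09% of all genes, with Hsf2 at an adjusted p of 0.0394.

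**Figure D3:**
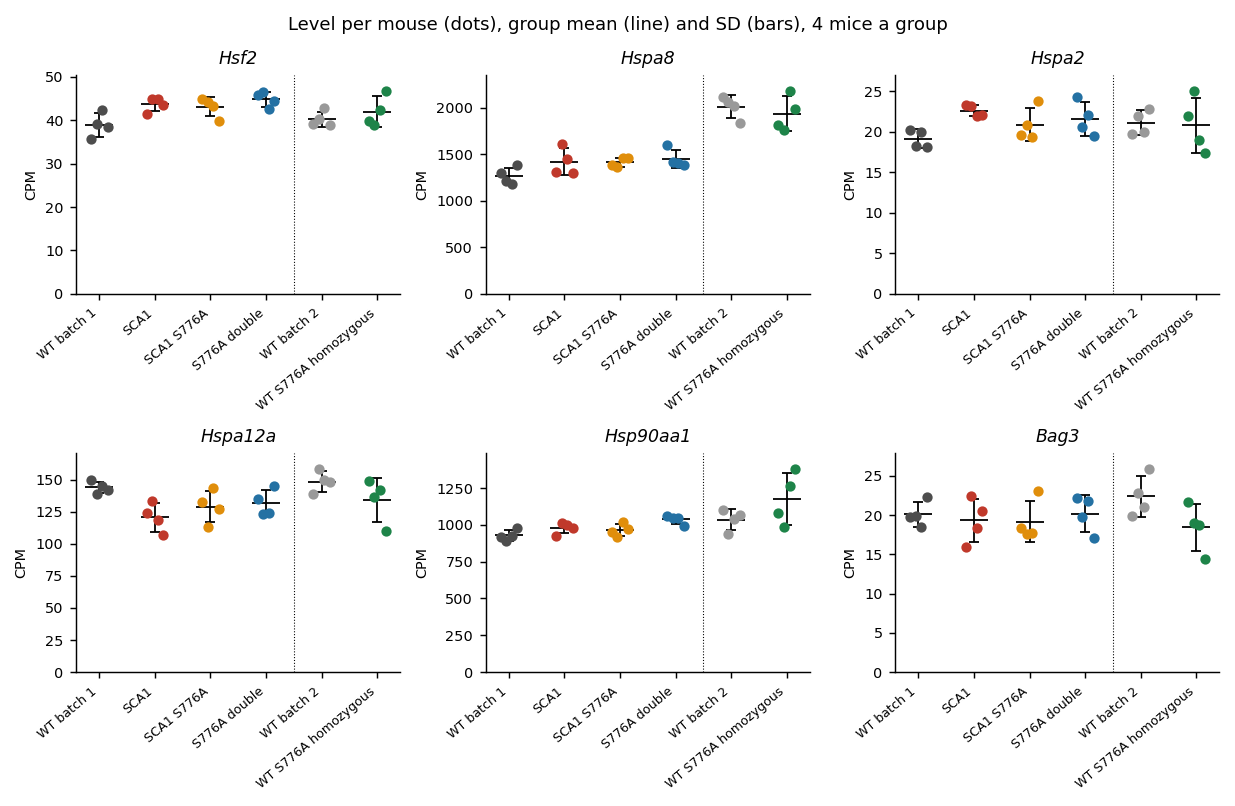
CPM of 6 chaperone genes in every mouse, by genotype, with the 4 WT mice of each batch apart and a dotted line between the batches. Dots are mice, lines group means and bars SDs (n = 4). Hspa12a lies lower and Hspa2 higher in SCA1 mice than in the WT mice of batch 1. Hsf2, Hspa8 and Hsp90aa1 lie higher in S776A double mice, and their means are also higher in SCA1 and SCA1 S776A mice. Hspa8 differs most between the batches.

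WT S776A homozygous mice carry the mutation without the expansion and were compared with WT to see the mutation alone. Of the members, 0 of 34 passed at either threshold, as did 0% of all genes. DESeq2 also called 0, with the batch in the design (0% of all genes) or after ComBat-seq (1.34%). With edgeR and no batch in the fit 8 members were called (19.4% of all genes). The median log2 fold change was 0.03 (range -0.28 to 0.19), against 0.01 over all genes. At an unadjusted p under 0.05 there were 3 members (8.82%, against 9.98% of all genes), Hsp90aa1, Dnajb6 and Bag3, and no member was free of overlap (2.65% of all genes). Hsp90aa1 had 1097.9, 936, 1043 and 1064 CPM in the WT mice of batch 2 and 1081, 986, 1262 and 1379 CPM in WT S776A homozygous mice, with a log2 fold change of 0.19 (SE 0.08, adjusted p = 0.485). The group mean rests on 2 high mice, and without WT S776A homozygous replicate 4 the value was 0.10. Bag3, which couples HSP70 to small heat shock proteins and to autophagy, had 19.9, 22.9, 21.0 and 25.9 CPM in WT and 21.6, 19.0, 18.8 and 14.4 CPM in WT S776A homozygous mice, with a log2 fold change of -0.28 (SE 0.12, adjusted p = 0.485) and a 95% interval of -0.53 to -0.03. Without WT S776A homozygous replicate 4 it was -0.18. Dnajb6, a J-domain protein that holds back polyglutamine aggregation, had 172, 152.2, 161 and 162 CPM in WT and 155, 165, 194 and 219 CPM in WT S776A homozygous mice, with a log2 fold change of 0.18 (SE 0.08, adjusted p = 0.485). Leaving out 1 mouse at a time moved this value between 0.08 (without the same mouse) and 0.24. The step from SCA1 S776A to S776A double mice, which adds the mutation to the unexpanded allele, was set against the step from WT to WT S776A homozygous mice, which adds it to both alleles. The contrast therefore does not compare the same change with and without the expansion. In it 0 of 34 passed (0% of all genes). Bag3 alone had an unadjusted p under 0.05 (2.88% of all genes), with a log2 difference of 0.35 (SE 0.17, adjusted p = 0.997).

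By family, no group of chaperone genes stood far from WT in its median. In SCA1 mice the medians of the 10 families ran from -0.03 (co-chaperones Stip1, Stub1 and Bag3) to 0.08 (the heat shock factors). Among the 8 HSP70 genes 4 were above and 4 below WT. In S776A double mice the medians ran from -0.01 (small heat shock proteins) to 0.15 (HSP90). The 12 heat-inducible cytosolic genes had medians of 0.04 in SCA1 mice, 0.03 in SCA1 S776A mice, 0.10 in S776A double mice and 0.02 in WT S776A homozygous mice. The 5 endoplasmic reticulum genes (Hspa5, Hsp90b1, Hspa13, Dnajb9 and Dnajc3) had medians of 0.07, 0.09, 0.13 and 0.10, and the 4 mitochondrial genes (Hspa9, Hspd1, Hspe1 and Dnaja3) 0.01, -0.01, 0.01 and 0.06, in the same order of genotypes. In each of the 4 genotypes 0 members of these groups passed the adjusted test. The medians of all genes were between 0.00 and 0.01.

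None of the inducible genes that HSF1 switches on passed the test in a genotype. Hspa1a had 3.58, 3.89, 3.73 and 4.41 CPM in the WT mice of batch 1, 3.44, 3.94, 3.59 and 3.66 in SCA1 mice, 3.45, 3.82, 3.60 and 4.23 in SCA1 S776A mice and 4.32, 3.81, 4.14 and 3.51 in S776A double mice. Hspa1b had 5.04, 4.37, 4.68 and 5.82 CPM in the WT mice of batch 1, 3.76, 4.29, 3.99 and 4.73 in SCA1 mice, 4.53, 5.13, 5.04 and 5.06 in SCA1 S776A mice and 7.04, 4.55, 5.22 and 5.06 in S776A double mice, with 1 high mouse among the S776A double mice. The groups overlapped for both genes. In batch 2, Hspa1a had 4.63, 6.18, 4.83 and 5.69 CPM in WT and 6.10, 5.99, 4.46 and 4.10 in WT S776A homozygous mice, and the groups overlapped. In the same batch Hspa1b had 5.10, 7.39, 6.13 and 6.57 CPM in WT and 8.58, 7.49, 6.73 and 4.67 in WT S776A homozygous mice. Counted as 1 feature, the pair had log2 fold changes of -0.18 in SCA1 (SE 0.13, adjusted p = 0.782), -0.03 in SCA1 S776A (SE 0.13, adjusted p = 0.9998), 0.08 in S776A double (SE 0.13, adjusted p = 0.893) and 0.05 in WT S776A homozygous mice (SE 0.13, adjusted p = 0.902).

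Hsf1, the master regulator of these genes, had 46.5, 48.9, 46.9 and 47.9 CPM in the WT mice of batch 1, 46.4, 48.4, 44.0 and 49.9 in SCA1 mice, 46.8, 47.2, 49.7 and 47.7 in SCA1 S776A mice and 48.9, 48.2, 46.4 and 47.0 in S776A double mice, and all groups overlapped. In batch 2 it had 34.1, 38.8, 36.1 and 36.2 CPM in WT and 36.1, 36.9, 32.8 and 29.3 in WT S776A homozygous mice. The level of Hsf1 was lower in every mouse of batch 2 than in every mouse of batch 1.

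Hsph1, the inducible HSP110, had 116, 113, 124 and 144.3 CPM in the WT mice of batch 1, 118, 150.7, 118 and 123 in SCA1 mice, 115, 120.4, 144.2 and 138.4 in SCA1 S776A mice and 162, 125, 133 and 134.6 in S776A double mice. Dnajb1, the inducible J-domain partner of HSP70, had 37.2, 35.3, 38.7 and 41.9 CPM in the WT mice of batch 1, 40.2, 47.9, 39.5 and 37.6 in SCA1 mice, 37.9, 40.3, 44.4 and 45.0 in SCA1 S776A mice and 47.4, 37.4, 41.3 and 39.8 in S776A double mice. Among SCA1 mice, S776A double mice and the WT mice of each batch, the mouse with the highest Hsph1 also had the highest Dnajb1. This was not so among SCA1 S776A mice or WT S776A homozygous mice. In batch 2, Hsph1 had 152.6, 165, 147 and 159 CPM in WT and 162, 127, 176 and 145 in WT S776A homozygous mice, and WT mice lay inside the range of the homozygous mice. Dnajb1 had 56.3, 58.6, 52.2 and 53.4 CPM in WT and 59.0, 49.0, 55.6 and 58.1 in WT S776A homozygous mice there. The log2 fold changes of Hsph1 were 0.03 (SE 0.10, adjusted p = 0.957) in SCA1 and 0.16 (SE 0.10, adjusted p = 0.781) in S776A double mice, and those of Dnajb1 were 0.11 (SE 0.08, adjusted p = 0.788) and 0.12 (SE 0.08, adjusted p = 0.792).

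Hsp90ab1, the constitutive HSP90, had 1154, 1164, 1127 and 1212 CPM in the WT mice of batch 1, 1172, 1263, 1089.8 and 1097.8 in SCA1 mice, 1113, 1092, 1113 and 1163.4 in SCA1 S776A mice and 1176, 1106, 1138 and 1073 in S776A double mice. Its 95% interval in SCA1 mice was -0.14 to 0.11 on the log2 scale. In batch 2 it had 1570.4, 1625, 1524 and 1603 CPM in WT and 1622, 1557, 1577 and 1357 in WT S776A homozygous mice. The lowest value of batch 2 was above all values of batch 1.

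Hspa5 (BiP), the HSP70 of the endoplasmic reticulum, was the most variable member. It had 236, 222, 240.5 and 324 CPM in the WT mice of batch 1, 229.7, 338, 253 and 277 in SCA1 mice, 242, 274, 283 and 294 in SCA1 S776A mice and 319, 261, 291 and 272 in S776A double mice. In batch 2 it had 416, 453, 428 and 416 CPM in WT and 329.8, 271, 595 and 434.6 in WT S776A homozygous mice, so the homozygous mice held both the lowest and the highest value of that batch. The log2 fold change was 0.10 (SE 0.17, adjusted p = 0.910) in SCA1 mice. In S776A double mice it was 0.16 (SE 0.17, adjusted p = 0.846) with a 95% interval of -0.20 to 0.52, and no other member of that comparison had an interval that passed 0.5. Hspd1 (HSP60), which folds proteins in the mitochondrial matrix, had 162, 160.3, 164 and 176 CPM in the WT mice of batch 1, 168, 184, 173 and 158 in SCA1 mice, 163, 163, 170.4 and 168 in SCA1 S776A mice and 176, 168, 167 and 166 in S776A double mice. In batch 2 it had 201, 187, 188 and 199 CPM in WT and 192, 179, 218 and 226 in WT S776A homozygous mice. The groups overlapped in both batches.

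The small heat shock proteins also overlapped between genotypes. Cryab, found mainly in oligodendrocytes and astrocytes, had 64.4, 72.7, 68.1 and 75.1 CPM in the WT mice of batch 1, 68.4, 76.8, 70.2 and 81.6 in SCA1 mice, 60.6, 76.5, 76.5 and 74.8 in SCA1 S776A mice and 67.0, 77.2, 78.7 and 70.9 in S776A double mice. Hspb8, a partner of Bag3, had 15.6, 15.1, 19.5 and 18.1 CPM in the WT mice of batch 1, 12.8, 17.0, 14.0 and 20.5 in SCA1 mice, 13.3, 18.1, 18.6 and 17.4 in SCA1 S776A mice and 14.3, 14.5, 17.7 and 18.2 in S776A double mice. In SCA1 mice the log2 fold change of Cryab was 0.08 (SE 0.08, adjusted p = 0.848) and that of Hspb8 -0.09 (SE 0.13, adjusted p = 0.896). In batch 2, Cryab had 104, 97.3, 95.3 and 96.6 CPM in WT and 101, 94.8, 113 and 119 in WT S776A homozygous mice. Hspb8 had 22.9, 19.8, 20.2 and 22.5 CPM in WT and 19.7, 22.9, 19.8 and 19.1 in WT S776A homozygous mice there. Of the 4 oligodendrocyte markers, summed CPM was 6001 to 7308 in SCA1 mice and 5424 to 6519 in the WT mice of batch 1. Their part in the Cryab values was not tested.

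Stub1 (CHIP), the ubiquitin ligase that binds HSP70 and ATXN1, had 62.5, 60.2, 66.8 and 66.6 CPM in the WT mice of batch 1, 61.99, 60.6, 60.6 and 67.6 in SCA1 mice, 60.9, 58.7, 61.8 and 65.2 in SCA1 S776A mice and 54.2, 65.2, 68.3 and 58.4 in S776A double mice. In batch 2 it had 59.5, 64.4, 59.9 and 57.9 CPM in WT and 61.6, 63.9, 61.9 and 59.4 in WT S776A homozygous mice. Its groups overlapped throughout, and the log2 fold change in SCA1 mice was -0.03 (SE 0.06, adjusted p = 0.934). Bag3 had 19.8, 19.9, 18.5 and 22.3 CPM in the WT mice of batch 1, 15.9, 22.4, 18.4 and 20.6 in SCA1 mice, 18.4, 17.6, 17.7 and 23.1 in SCA1 S776A mice and 22.2, 19.8, 21.8 and 17.0 in S776A double mice. Dnajb6 had 134.8, 134.0, 133 and 146.0 CPM in the WT mice of batch 1, 137, 141, 156 and 131 in SCA1 mice, 141.8, 131, 137 and 149 in SCA1 S776A mice and 145, 149, 143 and 141 in S776A double mice. Neither gene separated a genotype from WT in that batch. Dnajb5 had log2 fold changes of 0.05 in SCA1, 0.05 in SCA1 S776A, 0.00 in S776A double and -0.12 in WT S776A homozygous mice. The 15 remaining members (Hspa4, Hspa4l, Hspa9, Hspa13, Hsp90b1, Hspe1, Dnaja1, Dnaja2, Dnaja3, Dnajb2, Dnajb4, Dnajb9, Dnajc3, Dnajc5 and Stip1) had log2 fold changes from -0.08 to 0.10 in SCA1, from -0.05 to 0.11 in SCA1 S776A, from -0.07 to 0.18 in S776A double and from -0.01 to 0.18 in WT S776A homozygous mice. None of them had an unadjusted p under 0.05 in these comparisons.

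The WT mice of the 2 inferred batches differed in most of the chaperone genes. At an adjusted p under 0.05, 21 of 34 members were higher in batch 2 (61.8%, against 20.7% of all genes) and 1 was lower (2.94%, against 24.3%). Free of overlap were 20 higher members (22.9% of all genes) and 1 lower (23.8%). The median log2 difference of the members was 0.23, and that of all genes was 0.00. Hspa8 was 0.67 higher on the log2 scale in the WT mice of batch 2 (SE 0.08, adjusted p = 3.38e-07). Stip1 differed by 0.61 (SE 0.06, adjusted p = 1.27e-08), Hspa5 by 0.74 (SE 0.17, adjusted p = 0.00142) and Dnajb1 by 0.53 (SE 0.08, adjusted p = 1.62e-05). Hsf1, which switches on the heat shock genes, was the member that was lower, with a log2 difference of -0.39 (SE 0.06, adjusted p = 1.62e-05). Dnajb2, Dnajc3 and Hspa4l lay near 0, at 0.01, 0.02 and -0.02. The cold-inducible RNA-binding protein genes Cirbp and Rbm3, which are no members, were lower in batch 2, with log2 differences of -0.79 (SE 0.18, adjusted p = 0.00117) and -0.40 (SE 0.12, adjusted p = 0.00953). Fragments outside annotated genes made up 5.23% to 6.31% in batch 2 and 9.52% to 12.0% in batch 1, a share that was itself used to infer the batches. Granule cell markers also differed, with summed CPM of 5176 to 5294 in the WT mice of batch 2 and 4444 to 4607 in those of batch 1, and blood markers with 119 to 310.4 against 81.0 to 98.2. Oligodendrocyte markers had 6884 to 7867 against 5424 to 6519, endothelial markers 92.3 to 99.7 against 61.6 to 74.3, and Purkinje cell markers 6346 to 7536 against 7720 to 8883, also without overlap. The Purkinje cell sum was lower in batch 2, yet the median log2 difference of its 5 markers was 0.21. Of these 5, 4 had an adjusted p under 0.05. Microglia markers had 64.1 to 69.4 against 59.6 to 63.9, while Bergmann glia and astrocyte markers overlapped, with 4585 to 4930 against 4077 to 4633. Their part in the chaperone values was not tested. Sequencing, tissue handling and the mice themselves cannot be told apart in this contrast. Without the batch in the fit, the log2 fold change of Hspa8 became -0.21 in SCA1 mice, -0.21 in SCA1 S776A mice, and S776A double mice had -0.17, the opposite direction.

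Several chaperone genes moved together from mouse to mouse within genotype and batch. After the mean of each genotype and batch was removed, the log2 CPM of Hsph1 was set against that of the 33 other members and of Cirbp and Rbm3 over 24 mice, with permutation tests (100000 shuffles within genotype and batch) adjusted over the 35 relations. Of these, 10 passed at an adjusted p under 0.05 by Pearson's r and 12 by Spearman's rho. All 8 members among the 10 were positive, and 31 of the 33 members had a positive r (median 0.41). The same relation was not computed for the other genes tested. The counts therefore do not show that moving with Hsph1 is particular to chaperone genes. The strongest were Dnajb1 (r = 0.87, rho = 0.86, adjusted permutation p = 0.00175), the HSP110 gene Hspa4 (r = 0.84, rho = 0.81, adjusted permutation p = 0.00175) and Hspa5 (r = 0.78, rho = 0.75, adjusted permutation p = 0.00341). Hspa8, Dnajc3, Dnaja1, Stip1 and Hsp90b1 followed, with r of 0.69, 0.65, 0.63, 0.63 and 0.60. Cirbp (r = -0.81, rho = -0.81, adjusted permutation p = 0.00175) and Rbm3 (r = -0.71, rho = -0.62, adjusted permutation p = 0.00651) were negative. The heat shock factors had r of 0.15 (Hsf1) and 0.04 (Hsf2) and did not pass. Dnajb5 (r = -0.22) and Stub1 (r = -0.11) were the members with a negative r.

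The relation rested partly on 2 mice. SCA1 replicate 2 and S776A double replicate 1 lay farthest from the median of Hsph1, at 0.25 and 0.23 above their group means on the log2 scale. In these mice Cirbp had 83.9 and 73.3 CPM, the lowest of their groups. Without both, 3 of the 35 relations passed (Pearson), among them Cirbp at r = -0.71 (adjusted permutation p = 0.0374), and 0 passed by Spearman. Dnajb1 had r = 0.79, Hspa4 0.79 and Hspa5 0.75 without them. WT S776A homozygous replicate 2, at -0.25 from its group mean in Hsph1, was kept in that check. Within the 16 mice of batch 1, 17 relations passed by Pearson and 10 by Spearman, with a median r over the members of 0.60. Within the 8 mice of batch 2, 0 passed by an exact test over 576 arrangements. These are too few for a single relation to pass after adjustment over 35. Before adjustment none had a permutation p under 0.05 either. The lowest was 0.0729 by Pearson (Hspa4) and 0.0851 by Spearman (Hsp90ab1). The median r was 0.32, and 27 of the 33 members had a positive r. There Cirbp and Rbm3 had r of -0.69 and -0.78. Of 10 marker lists, the depth and 2 mapping shares (13 relations with Hsph1, adjusted permutation p), the granule cell markers had r = -0.59 (adjusted permutation p = 0.0712; rho = -0.72, adjusted permutation p = 0.0205) and the fragments on genes r = 0.57 (adjusted permutation p = 0.0712). Their part in the relation was not tested. The choroid plexus (r = 0.12) and immediate early gene lists (r = 0.15) had weaker relations.

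**Figure D4:**
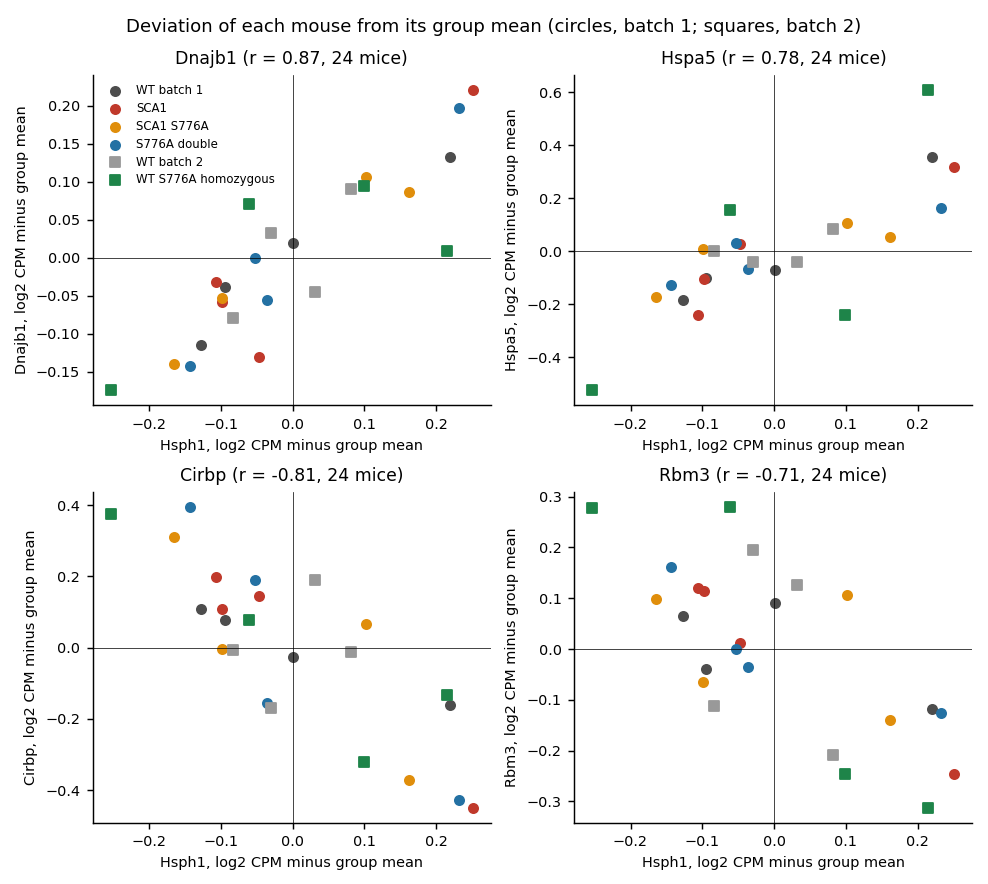
Deviation of each of 24 mice from the mean of its genotype and batch in log2 CPM, for Hsph1 on the horizontal axis and Dnajb1, Hspa5, Cirbp or Rbm3 on the vertical axis. Circles are batch 1, squares are batch 2, and colors are the groups. Dnajb1 and Hspa5 increase with Hsph1, and Cirbp and Rbm3 decrease.

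**Figure D5:**
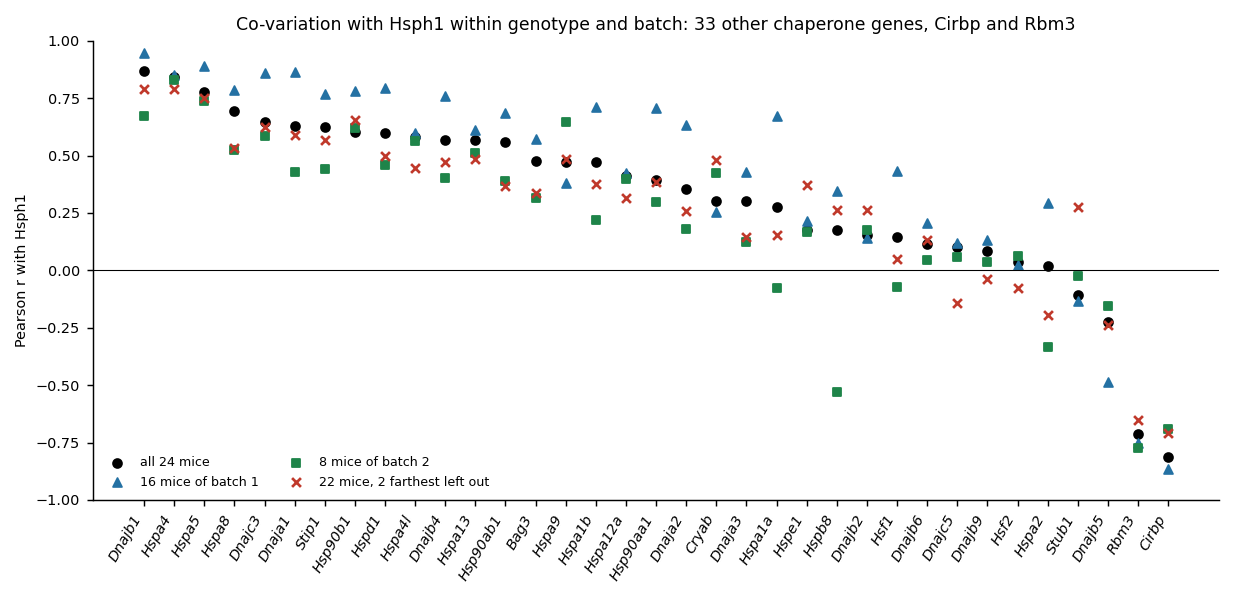
Pearson r with Hsph1 of the 33 other chaperone genes, Cirbp and Rbm3, after removal of group means. Markers show all 24 mice, the 16 of batch 1, the 8 of batch 2, and 22 mice without the 2 farthest in Hsph1. Dnajb1 is at 0.87 and Cirbp at -0.81 over all mice.

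Chaperone lists drawn up beside the 34 members held no gene that passed the test in a genotype. The endoplasmic reticulum stress list also includes the member Hsp90b1. The CCT complex, the cytosolic chaperonin that folds actin and tubulin, had 0 of 8 subunits passing at an adjusted p under 0.05 in any genotype. Its medians were 0.11 in SCA1 mice, 0.04 in SCA1 S776A mice, 0.13 in S776A double mice and 0.06 in WT S776A homozygous mice. At an unadjusted p under 0.05, 3 of 8 subunits in SCA1 and 6 of 8 in S776A double mice were higher (3.93% and 3.54% of all genes). In SCA1 S776A and WT S776A homozygous mice 0 of 8 had such a p. Set directly against SCA1 mice, S776A double mice had 0 of 8 and a median of 0.02. Cct6a and Cct2 led in SCA1 mice, with log2 fold changes of 0.14 (SE 0.06, adjusted p = 0.492) and 0.12 (SE 0.05, adjusted p = 0.568). Of 32 further heat shock proteins and co-chaperones 0 passed, with medians of 0.03, 0.01, 0.04 and 0.04 in the same order of genotypes. The lowest p in SCA1 mice were those of Ahsa1, which speeds the HSP90 cycle (0.13, SE 0.06, adjusted p = 0.610), and the small heat shock protein gene Hspb6 (0.12, SE 0.08, adjusted p = 0.738). Of 17 genes of the endoplasmic reticulum stress response 0 passed, with medians of 0.06, 0.07, 0.09 and 0.03. Atf4 had 0.12 (SE 0.06, adjusted p = 0.626) and Trib3 -0.29 (SE 0.18, adjusted p = 0.736) in SCA1 mice. Between the WT mice of the inferred batches, 8 of 8 CCT genes, 21 of 32 further chaperone genes and 13 of 17 endoplasmic reticulum stress genes were higher in batch 2 at an adjusted p under 0.05, against 20.7% of all genes.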

How the data were processed

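RNA from the cerebellum of 24 mice, 1 library per mouse, was sequenced by the authors. Per the submitters' processing notes, Trimmomatic 0.36, STAR 2.7.2d, DESeq2 1.28.1 and GRCm38.p6 were used. The authors deposited raw counts of fragments per gene from STAR without normalization. Here the unstranded column was used (the stranded columns were nearly equal, with ratios of 0.9995 to 1.0035). 1 further feature that names no mouse gene is not reported here.

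Batches were inferred by k-means (k = 2) on 4 STAR mapping shares (mean silhouette 0.634). Counts were scaled by TMM (factors 0.944 to 1.06), filtered by filterByExpr (22502 genes kept) and tested with edgeR 4.0.16 in R 4.3.3 by quasi-likelihood with genotype and batch over all 24 mice, with Benjamini-Hochberg adjustment over all genes. The labels do not say that mice of a group came from separate litters, so p-values measure the spread between these mice. Alternatives were RLE scaling, DESeq2 1.42.0 with the batch, ComBat-seq (sva 3.50.0) with DESeq2, no and a stricter filter, no batch, mice of 1 batch, a stranded column, an Xist covariate and leaving out each mouse. Gene identifiers matched GENCODE M21 for 54165 of 54232. The fits were tested on simulated data.

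The members and lists were chosen with earlier results of these data known. Values by mouse are given for any member that passed, for the 2 members with the lowest p in each genotype against WT, and for a representative of each family. Of each list beside the members 2 genes are named, by the lowest p in SCA1 mice.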

Additional observations from a re-analysis of the deposited data

Results flagged for a closer look

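In 13 of 216 groups of 4 mice, 1 mouse lay apart from the other 3 by Dixon's test, where chance flags about 1 in 20 groups, or 10.8. Hsph1 was 150.7 CPM in SCA1 replicate 2 (others 117.7 to 122.6), and Cirbp was 83.86 CPM in the same mouse (others 123.3 to 131.3). Hspa8 was 1595 CPM in S776A double replicate 1 (others 1388 to 1412), and Hspa9 was 265.1 CPM in that mouse (others 261.0 to 261.3). Hsp90b1 and Dnajb6 were 194.4 and 146.0 CPM in WT replicate 4 (others 169.7 to 173.7 and 132.6 to 134.8).

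Lower than the others of their group were Hspa1b with 4.526 CPM in SCA1 S776A replicate 1 (others 5.037 to 5.135), Cryab with 60.57 CPM in the same mouse (others 74.76 to 76.53) and Hspa4 with 290.1 CPM in WT replicate 7 (others 303.5 to 305.9). Dnajb5 was 85.52 CPM in S776A double replicate 3 (others 87.7 to 88.04), and Dnajc5 was 327.6 CPM in SCA1 replicate 4 (others 387.1 to 396.4). Bag3 was 23.06 CPM in SCA1 S776A replicate 4 (others 17.57 to 18.39), and Hspb8 was 22.88 CPM in WT S776A homozygous replicate 2 (others 19.15 to 19.76). The share of flagged groups was close to that of chance.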

How the results depend on the processing

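Of 1576 alternative values, 1549 were unchanged (a tested value kept its direction and side of the threshold, a count stayed within 1.5 times, and a median moved by less than the SD between mice of 0.0547 log2), 14 moved, 9 passed the threshold where the main value did not, and 4 reversed. Without the batch in the fit, the log2 fold change of Hspa8 reversed to -0.21 in SCA1, -0.21 in SCA1 S776A, -0.17 in S776A double and -0.20 in the pooled mice. In the same fit the median of the members was -0.12, -0.11, -0.06 and -0.09 in these comparisons, 0.17 in WT S776A homozygous mice and -0.15 for the interaction, and 8 members were called in WT S776A homozygous and 6 in the pooled mice. That fit leaves the difference between the WT mice of the batches inside the genotype contrast. ComBat-seq with DESeq2 called 2 members in SCA1, 1 in S776A double and 2 in the pooled mice. The ComBat-seq fit took the WT mice of both batches as controls, on adjusted counts. DESeq2 with the batch called 0 members in SCA1 and in S776A double mice, as edgeR did. The cause of the difference was not tested. The relations with Hsph1 that passed numbered 17 in batch 1, 0 in batch 2 (where 8 mice allow no single relation to pass) and 3 without the 2 farthest mice. In batch 2 no relation had an unadjusted permutation p under 0.05 either. With the Xist covariate, 11 of 34 members changed sign in S776A double against SCA1 S776A mice and 6 of 34 against SCA1 mice. The largest main log2 difference among these was 0.064 and 0.057. In each genotype against WT, 0 of 34 changed sign with that covariate.

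Leaving out each mouse in turn gave 0 members called in every genotype comparison and the interaction. The median of the members ran from -0.02 to 0.05 in SCA1, 0.01 to 0.06 in SCA1 S776A, 0.04 to 0.10 in S776A double, 0.01 to 0.06 in WT S776A homozygous and 0.02 to 0.07 in pooled mice. That of SCA1 mice was -0.02 without SCA1 replicate 2, and those of SCA1 S776A against SCA1 mice (-0.01 to 0.06) and of the interaction (-0.03 to 0.01) also changed sign. Between the WT batches, 17 to 25 members were called. No paired analysis was possible because the replicate numbers only name mice in accession order and tie no mice of different genotypes to a shared litter or day. The member with the fewest fragments had 237 in a library, and the intervals were widest for Hspa5 and Hspa1b, which varied most between mice.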
